A study of Mus musculus with 2 samples.

Results

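The CXC chemokines followed here were 6 genes picked by symbol, Cxcl1, Cxcl2, Cxcl9, Cxcl10, Cxcl12 and Cxcl16, of the 55450 genes in the count matrices. The set was picked because Cxcl10 was higher and Cxcl2 lower in the Hk2 cKO library, so the ratios of those genes between the libraries describe the choice. Single cells were sorted from mouse brain by high CD11b and low CD45 and captured with the v3 chemistry of the 10x Chromium 3' kit 3 days into microglial repopulation. There was 1 library from Hk2 cKO animals (Cx3cr1CreER::hk2 fl/fl, in which a tamoxifen-inducible Cre made from the Cx3cr1 locus removes the floxed hexokinase 2 gene) and 1 library from Hk2 fl/fl animals, which carry the floxed gene. Both were on C57BL/6, and the labels describe tamoxifen, 100 μg daily for 2 days from postnatal day 1 unless another scheme is named, without saying which animals of these libraries received it. Cx3cr1 is also used by monocytes and other myeloid cells, so this Cre is not restricted to microglia. The method of depletion, the age at sorting, the number of animals per library and the floxed exons are not given in the sources used here. With 1 library per genotype no difference could be tested: intervals are exact 95% Poisson or Clopper-Pearson intervals, they cover counting error only, and genotype cannot be told apart from library.

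CXC chemokines are small secreted or membrane-bound proteins that guide leukocytes through G protein-coupled receptors. Cxcl1 and Cxcl2 carry an ELR motif and draw neutrophils through Cxcr2, and their genes are induced by NF-kB and have short-lived transcripts. Cxcl9 and Cxcl10 are induced by interferons, Cxcl10 also by NF-kB, and act on T and NK cells through Cxcr3. Cxcl12 is a homeostatic chemokine of stromal and endothelial cells read by Cxcr4 and Ackr3, and Cxcl16 is made as a membrane protein, bound by Cxcr6 and released by the proteases Adam10 and Adam17.

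The upstream sequences are shown because Cxcl10 and Cxcl2 both carry letters of an NF-kB site and Cxcl10 also those of an interferon element. They are RefSeq promoters (GRCm38.p6) for 5 of the 6 members, given here from 240 to 41 bases upstream of the annotated start, 5′ to 3′ on the gene's strand. Capitals mark matches, on either strand, to GAAA, any 2 bases and GAAA, the core of the interferon-stimulated response element, or to GGGA, any 4 bases and CC, a form of the NF-kB site. Matches to the second pattern on opposite strands overlap where the letters fit it on both strands.
Cxcl1, chr5:90891005-90891204, plus strand: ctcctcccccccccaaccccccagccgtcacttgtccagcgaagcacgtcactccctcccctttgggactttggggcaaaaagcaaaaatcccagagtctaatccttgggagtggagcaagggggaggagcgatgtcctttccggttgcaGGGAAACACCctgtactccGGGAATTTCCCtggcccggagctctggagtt
Cxcl2, chr5:90903659-90903858, plus strand: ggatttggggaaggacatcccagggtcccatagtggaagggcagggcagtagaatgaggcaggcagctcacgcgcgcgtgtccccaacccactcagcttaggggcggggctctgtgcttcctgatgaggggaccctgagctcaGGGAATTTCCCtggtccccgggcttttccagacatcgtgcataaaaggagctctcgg
Cxcl9, chr5:92328120-92328319, minus strand: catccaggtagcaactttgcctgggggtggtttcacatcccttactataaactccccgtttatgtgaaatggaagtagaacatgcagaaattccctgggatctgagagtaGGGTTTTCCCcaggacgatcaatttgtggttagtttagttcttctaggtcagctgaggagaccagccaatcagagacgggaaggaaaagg
Cxcl10, chr5:92348930-92349129, minus strand: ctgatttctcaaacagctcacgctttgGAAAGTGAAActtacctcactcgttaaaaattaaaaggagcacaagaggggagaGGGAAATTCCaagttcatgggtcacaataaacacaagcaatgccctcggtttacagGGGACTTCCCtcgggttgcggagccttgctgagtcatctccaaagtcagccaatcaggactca
Cxcl12, chr6:117168295-117168494, plus strand: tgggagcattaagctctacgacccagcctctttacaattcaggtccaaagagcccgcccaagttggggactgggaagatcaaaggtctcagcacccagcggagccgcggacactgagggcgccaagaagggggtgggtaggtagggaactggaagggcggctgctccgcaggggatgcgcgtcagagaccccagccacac

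Cxcl1 and Cxcl2 share GGGAATTTCC, which starts 71 bases upstream in Cxcl1 and 97 bases upstream in Cxcl2. Cxcl10 holds the interferon pattern as GAAAGTGAAA, starting 213 bases upstream, and the NF-kB pattern as GGGAAATTCC and GGGACTTCCC, starting 159 and 103 bases upstream. Cxcl9 has 1 match to the NF-kB pattern, and in Cxcl12 neither set of letters occurs in this window. Over all 32851 RefSeq promoters cut to the same 200 bases, 2.39% held the interferon pattern, 14.1% the NF-kB pattern and 0.231% both. A match describes letters and is not evidence that a factor binds there.

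In GENCODE M21 (GRCm38) 4 members lie on chromosome 5: Cxcl1 at chr5:90891241-90893115 and Cxcl2 at chr5:90903871-90905938 on the plus strand, and Cxcl9 at chr5:92321347-92328079 and Cxcl10 at chr5:92346638-92348889 on the minus strand. Cxcl12 lies at chr6:117168535-117181367 on the plus strand and Cxcl16 at chr11:70453983-70459984 on the minus strand. No 50-base word from the last 500 bases of the longest transcript of any member occurs in a transcript of another gene. Cxcl10 overlaps Art3 and Cxcl16 overlaps Zmynd15, each on the other strand. In microglia-like cells Art3 had 89 UMIs in each library and Zmynd15 had 283 in cKO and 267 in fl/fl, few beside the members they overlap.

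The cKO matrix held 32896996 UMIs in 2607 barcodes and the fl/fl matrix 37476201 UMIs in 3089 barcodes, and 2 barcode sequences occurred in both. After filters 2301 cKO and 2826 fl/fl cells remained, of which 1997 (86.8%) in cKO and 2473 (87.5%) in fl/fl lay in 8 clusters called microglia-like from marker genes, with median depths of 11971 UMIs in cKO and 10133 UMIs in fl/fl. Neutrophil-like, endothelial cell-like, dendritic cell-like and monocyte-like clusters were also present in what was sorted as microglia. Hk2 itself stood at 43.0 CPM (UMIs of a gene over those of all genes in the summed cells, scaled to 1000000) in cKO and 167.2 CPM in fl/fl microglia-like cells, lower in the library labelled cKO. Doublets remained, because no doublet calls were applied. The caller marked 0.0435% of cKO and 0.0708% of fl/fl cells.

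The libraries also differed in a pair of near-identical transcripts, and this split touches the results that follow. Gm28438 is an annotated pseudogene on chromosome 1, and 293 of 296 of its 50-base words occur in mt-Nd3, a mitochondrial gene of respiratory complex I, so which of the pair a read is counted to turns on a few bases. Of the microglia-like cells, 1698 of 1997 in cKO and 480 of 2473 (19.4%) in fl/fl had UMIs of Gm28438 and none of mt-Nd3, while 4 (0.200%) in cKO and 1213 (49.0%) in fl/fl had UMIs of mt-Nd3 alone. Most cKO cells were thus of a kind that was the smaller one in the fl/fl library. What separates the kinds was not tested.

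Cxcl10, the interferon-induced ligand of Cxcr3, was the member with the larger gap among those well measured. In microglia-like cells it stood at 766 CPM (755.7 to 776) in cKO and 472 CPM (464 to 479) in fl/fl, a log2 ratio of 0.70 after adding 1 CPM, and the ratio without the added CPM lay between 0.67 and 0.73. It ranked 69th among the 7804 genes whose mean over both libraries reached 10 CPM. Cxcl2, a neutrophil attractant, stood at 719 CPM (709 to 729) in cKO and 869 CPM (859 to 879) in fl/fl, with a log2 ratio of -0.27 (-0.30 to -0.25). Cxcl16, the membrane-anchored member, stood at 194 CPM (189 to 199) in cKO and 189 CPM (184 to 193) in fl/fl, a log2 ratio of 0.04 whose interval (-0.02 to 0.09) spans 0. Among cells with Gm28438 alone in both libraries the log2 ratio was 0.11 for Cxcl10 and -0.58 for Cxcl2.

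The other members were near the limit of measurement in microglia-like cells. Cxcl1, the close relative of Cxcl2, had 268 UMIs in 47 cKO cells and 242 UMIs in 62 fl/fl cells, or 9.52 CPM in cKO and 7.41 CPM in fl/fl. Cxcl12 had 273 UMIs in cKO and 304 UMIs in fl/fl, or 9.69 CPM in cKO and 9.31 CPM in fl/fl. Cxcl9, an interferon gamma-induced ligand of Cxcr3, had 204 UMIs in 33 cKO cells and 68 UMIs in 28 fl/fl cells, and 84 of the cKO UMIs came from 1 cell. Without the top cell of each library its log2 ratio was 0.89 instead of 1.42.

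Thus 3 of the 6 members passed the 10 CPM minimum, and of these 1 (Cxcl10) was more than 25% higher in cKO and none more than 20% lower, which is the same fold either way. Of all 7804 genes that passed, 3.27% were past that fold higher, 2.64% past it lower and 5.91% past it either way, and the median log2 ratio was -0.04. Because the choice of members used this contrast, nothing is read from their count.

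**Figure D1:**
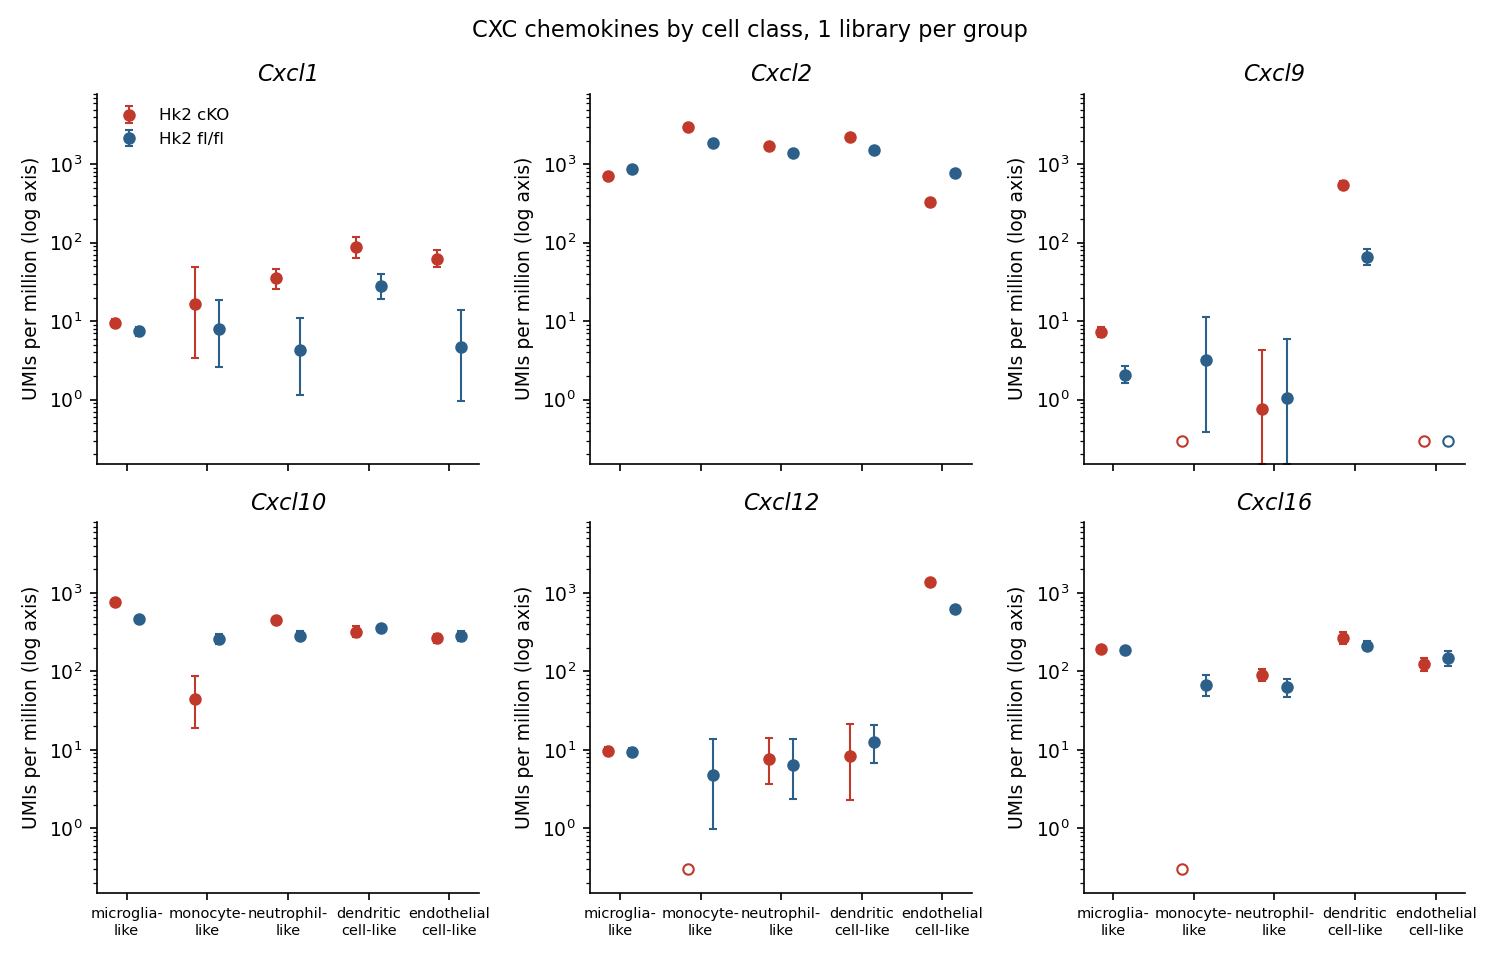
CPM (log axis) of each CXC chemokine in the cells of each class, summed, in the Hk2 cKO library (red, left) and the Hk2 fl/fl library (blue, right). Bars are exact 95% Poisson intervals cut at the axis, and open circles mark 0 UMIs and have no height. Cxcl12 stands out in endothelial cell-like cells, at 1359.8 CPM in cKO and 617 CPM in fl/fl, and Cxcl2 is at 1409.8 CPM or more in the monocyte-, neutrophil- and dendritic cell-like cells of both libraries.

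Across cell classes Cxcl2 was found in every named myeloid class. Its order was monocyte-like, dendritic cell-like and neutrophil-like cells at 2962, 2258 and 1726 CPM in cKO and at 1886, 1505 and 1409.8 CPM in fl/fl, all above microglia-like cells. The ratio between the libraries ran the other way in these classes, with log2 ratios of 0.65 in monocyte-like (21 cKO and 63 fl/fl cells), 0.58 in dendritic cell-like (36 cKO and 61 fl/fl cells) and 0.29 in neutrophil-like cells (91 cKO and 78 fl/fl cells). Of the dendritic cell-like and neutrophil-like cells, 15 and 58 in cKO and 13 and 31 in fl/fl had no UMI of the microglial markers P2ry12, Tmem119, Siglech or Fcrls. In those neutrophil-like cells Cxcl2 stood at 2394 CPM in cKO and 3903 CPM in fl/fl, and in those dendritic cell-like cells at 1489.6 CPM in cKO and 1825 CPM in fl/fl. The dendritic cell-like UMIs came from few cells, 102 of 215 from 1 cKO cell and 107 of 178 from 1 fl/fl cell. Without the richest cell of each library the log2 ratio was -0.63 in neutrophil-like and 0.15 in dendritic cell-like cells, so the direction turned in the neutrophil-like cells and was not settled in the dendritic cell-like cells. In monocyte-like cells without those markers it stood at 2302 CPM in cKO and 2197 CPM in fl/fl. Among cells without the markers the order of these values was thus neutrophil-like, monocyte-like and dendritic cell-like in both libraries, unlike that of the whole classes. In cKO the intervals of the neutrophil-like (2258 to 2536 CPM) and monocyte-like cells (2060 to 2563 CPM) overlapped. The dendritic cell-like value came from 7 cKO and 4 fl/fl cells with a Cxcl2 UMI. In endothelial cell-like cells Cxcl2 stood at 328 CPM in cKO and 785 CPM in fl/fl. That gap was not seen in those without the markers, at 106 CPM (9 UMIs in 19 cells) in cKO and 88.9 CPM (2 UMIs in 7 cells) in fl/fl. The log2 ratio there was 0.25, with an interval of -2.02 to 3.50.

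Cxcl1 was seen in few cells of any class. In neutrophil-like cells it had 46 UMIs in cKO and 4 UMIs in fl/fl, but 38 of the cKO UMIs lay in 1 cell. In endothelial cell-like cells it had 64 UMIs in 9 cKO cells and 3 UMIs in 3 fl/fl cells, and in dendritic cell-like cells 42 UMIs in 5 cKO cells and 32 UMIs in 8 fl/fl cells. The cKO library was the higher in each of these, on counts held by 9 cells at most.

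Cxcl10 was highest in microglia-like cells in both libraries. It stood at 452 CPM in cKO and 286 CPM in fl/fl neutrophil-like cells, at 320 CPM in cKO and 355 CPM in fl/fl in dendritic cell-like cells and at 263 CPM in cKO and 281 CPM in fl/fl in endothelial cell-like cells. These classes also held microglial RNA: the 4 microglial markers summed to between 932 and 1639.8 CPM in the cKO cells of these 3 classes and to between 1177 and 1814 CPM in the fl/fl cells, against 2746 CPM in cKO and 2704 CPM in fl/fl microglia-like cells. Per 100 UMIs of those markers there were 35.1 UMIs of Cxcl10 in cKO and 24.3 in fl/fl neutrophil-like cells, against 27.9 in cKO and 17.4 in fl/fl microglia-like cells. In neutrophil-like cells without such a UMI, Cxcl10 stood at 29.0 CPM in cKO and 27.5 CPM in fl/fl, far below the whole class, whereas dendritic cell-like cells without one kept 478 CPM in cKO and 502.5 CPM in fl/fl. Endothelial cell-like cells without one held 10 UMIs of Cxcl10 in 19 cKO cells (118 CPM) and 0 UMIs in 7 fl/fl cells. In monocyte-like cells Cxcl10 stood at 44.4 CPM (8 UMIs) in cKO and 258 CPM (163 UMIs) in fl/fl. The 4 microglial markers differed in the same direction there, at 22.2 CPM in cKO and 894 CPM in fl/fl, but the gap remained without cells holding them, at 41.7 CPM in 17 cKO cells and 283 CPM in 34 fl/fl cells.

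Cxcl9 was highest in dendritic cell-like cells, at 550.2 CPM in cKO and 66.5 CPM in fl/fl. That level and that difference belonged to single cells: 257 of the 261 cKO UMIs lay in 1 cell and 67 of the 75 fl/fl UMIs in 1 cell. Without these cells 4 UMIs were left in cKO and 8 in fl/fl, and the log2 ratio was 0.24 instead of 3.03. No UMI of Cxcl9 was found in the 84 cKO and 50 fl/fl endothelial cell-like cells.

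Cxcl12 was an endothelial transcript in these libraries. It stood at 1359.8 CPM (1289 to 1433) in 84 cKO endothelial cell-like cells and at 617 CPM (557 to 681) in 50 fl/fl cells, a log2 ratio of 1.14, and 86.7% of cKO and 84.4% of fl/fl cells held a UMI at an equal depth of 5000 UMIs. Cldn5, which encodes a tight junction protein of brain endothelium, stood at 2439 CPM in cKO and 1774 CPM in fl/fl, and per 100 of its UMIs there were 55.8 UMIs of Cxcl12 in cKO and 34.8 in fl/fl. Microglial markers made up less of the cKO endothelial cell-like cells, at 1639.8 CPM in cKO against 1814 CPM in fl/fl. Among cells without a microglial marker UMI, 19 in cKO and 7 in fl/fl, Cxcl12 stood at 3887 CPM in cKO and 2978 CPM in fl/fl and the log2 ratio was 0.38. With a stricter filter on cells (1000 genes or more, mitochondrial UMIs no more than 5%), 26 in cKO and 17 in fl/fl, it was 0.36. In microglia-like cells a Cxcl12 UMI at 5000 UMIs was found in 3.96% of cKO and 4.40% of fl/fl cells, beside 2.99% of cKO and 0% of fl/fl neutrophil-like cells. Neutrophil-like cells had median depths of 9772 UMIs in cKO and 9012.5 UMIs in fl/fl. Cldn5, too, had a UMI in 14.6% of cKO and 12.9% of fl/fl microglia-like cells, and per 100 of its UMIs there were 48.3 UMIs of Cxcl12 in cKO and 66.2 in fl/fl. No expression of Cxcl12 by microglia-like cells is read from these values.

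Cxcl16 was found in most classes. It stood at 268 CPM in cKO and 214 CPM in fl/fl dendritic cell-like cells, at 123 CPM in cKO and 147 CPM in fl/fl in endothelial cell-like cells and at 89.7 CPM in cKO and 62.6 CPM in fl/fl in neutrophil-like cells. In monocyte-like cells it had 0 UMIs in cKO, where the 3 counts taken as the limit of a count of 0 would be 16.6 CPM, and 66.6 CPM in fl/fl. Per 100 UMIs of microglial markers the fl/fl monocyte-like cells held 7.45 UMIs of Cxcl16, close to the 6.98 of fl/fl microglia-like cells. Among cells without a microglial marker UMI, dendritic cell-like cells kept 180 CPM in cKO and 205 CPM in fl/fl. Such neutrophil-like cells held 3 UMIs of Cxcl16 in 58 cKO cells and 0 in 31 fl/fl cells. Such endothelial cell-like cells held 1 UMI in 19 cKO cells and 1 in 7 fl/fl cells. No expression of Cxcl16 by neutrophil-like or endothelial cell-like cells is read from the class values.

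Among microglia-like cells the members were not evenly spread, and at an equal depth of 5000 UMIs (1817 cKO and 2249 fl/fl cells) the gaps of Cxcl10 and Cxcl2 had different shapes. A Cxcl2 UMI was found in 31.9% (29.8 to 34.1) of cKO and 44.1% (42.0 to 46.1) of fl/fl cells, but cells that held it averaged 9.15 UMIs in cKO and 7.99 in fl/fl. The cKO library thus had the smaller share of Cxcl2-positive cells, while the order of the UMIs per positive cell was the reverse among cells with Gm28438 alone, at 9.50 in cKO and 10.6 in fl/fl. At 20 or more UMIs the shares were 4.13% in cKO and 4.18% in fl/fl. A Cxcl10 UMI was found in 46.0% (43.6 to 48.3) of cKO and 42.3% (40.3 to 44.4) of fl/fl cells, and positive cells averaged 7.15 UMIs in cKO and 5.16 in fl/fl. At 20 or more UMIs of Cxcl10 the shares were 3.63% in cKO and 1.96% in fl/fl, and at 40 or more they were 0.605% (0.303 to 1.08) in cKO and 0.445% (0.213 to 0.816) in fl/fl, with intervals that overlap. Cxcl16 was found in 55.1% of cKO and 56.7% of fl/fl cells at 1.75 UMIs per positive cell in cKO and 1.69 in fl/fl. The richest 5% of cells held 42.2% of Cxcl10, 50.5% of Cxcl2 and 22.3% of Cxcl16 UMIs in cKO, and 46.4%, 45.6% and 21.2% in fl/fl. Without thinning, 38.2% of cKO and 51.0% of fl/fl cells had a Cxcl2 UMI and 55.4% of cKO and 51.3% of fl/fl cells had a Cxcl10 UMI. Free RNA can add UMIs to any cell, and how much it added was not tested. The unnamed cluster 12 had median depths of 20540.5 UMIs in cKO and 14734.5 UMIs in fl/fl. A Cxcl2 UMI at 5000 UMIs was found there in 12.5% of cKO and 13.3% of fl/fl cells. For Cxcl10 the shares were 18.8% of cKO and 11.1% of fl/fl cells. This cluster also held microglial marker RNA, 1756 CPM in cKO and 1641 CPM in fl/fl, so its shares do not measure free RNA alone. Its 8 cKO and 4 fl/fl cells without a microglial marker UMI had 0 UMIs of Cxcl2, and 1 UMI of Cxcl10 in each library.

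**Figure D2:**
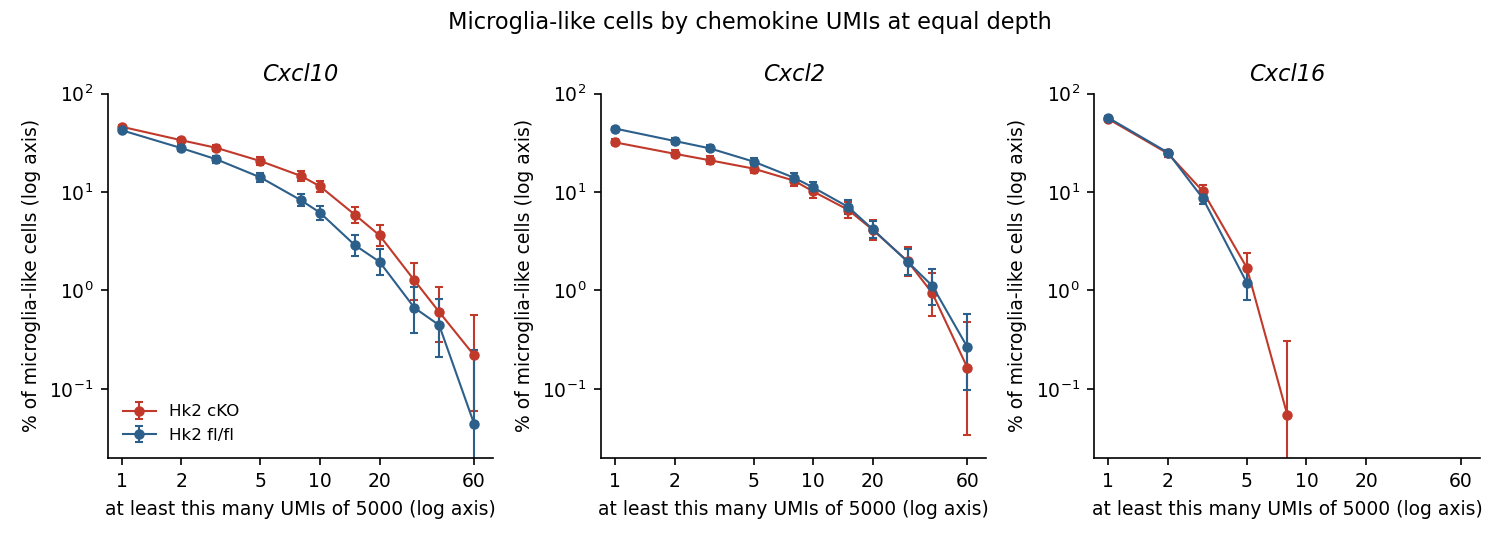
Share of microglia-like cells (log axis) with at least the given number of UMIs (log axis) of Cxcl10, Cxcl2 or Cxcl16 after each cell was thinned to 5000 UMIs, for Hk2 cKO (red, first in the legend) and Hk2 fl/fl (blue). Bars are exact 95% binomial intervals. The Cxcl10 curves lie apart at 20 UMIs, at 3.63% in cKO and 1.96% in fl/fl, with overlapping intervals at 40 UMIs, and the Cxcl2 curves start apart, at 31.9% in cKO and 44.1% in fl/fl for 1 UMI, and meet.

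Cxcl10 was found more often in cells that held Cxcl2 than in cells without it. In cKO a Cxcl10 UMI was found in 63.4% of 580 cells with Cxcl2 and 37.8% of 1237 cells without it, and in fl/fl in 53.0% of 991 cells with and 33.9% of 1258 cells without it. Cxcl1 was mostly found beside Cxcl2, in 23 of 28 Cxcl1-positive cells in cKO and 32 of 33 in fl/fl. Cxcl9-positive cells held Cxcl10 in 16 of 20 cases in cKO and 10 of 12 in fl/fl. Cells of 1 library are not replicates, so these shares describe the libraries.

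By cluster, Cxcl10 was higher in cKO in 7 of the 8 microglia-like clusters. It was highest in cluster 5, led by the mitotic genes Top2a and Mki67, at 1581 CPM in cKO and 889 CPM in fl/fl, followed in cKO by cluster 6 at 1004 CPM in cKO and 632 CPM in fl/fl and by cluster 4, led by Rcan1, Ccl7 and Il1b, at 999 CPM in cKO and 680.2 CPM in fl/fl. It was lowest in cluster 3, at 77.2 CPM in cKO and 35.9 CPM in fl/fl. That cluster had median depths of 7214 UMIs in cKO and 7179.5 UMIs in fl/fl and was led by immunoglobulin transcripts such as Igkc. The exception was cluster 1, led by Klf2, Otud1 and Klf6, at 281 CPM in cKO and 299.5 CPM in fl/fl. Cxcl2 was lower in cKO in 7 of 8 clusters, most in cluster 0, led by Fosb, at 189.0 CPM in cKO and 419 CPM in fl/fl, and in cluster 2, led by mt-Nd3 and Cd36, at 484 CPM in cKO and 891 CPM in fl/fl. In cluster 8, led by Apoe and Pf4, it was at its highest, 1471 CPM in cKO and 1510.1 CPM in fl/fl, and in cluster 3 it was 27.0 CPM in cKO and 17.7 CPM in fl/fl. Cxcl16 had log2 ratios of -0.34 to 0.18 over the clusters. Clusters 4 and 3 held most cKO cells (26.6% and 20.9%), and clusters 2 and 1 most fl/fl cells (21.9% and 16.5%).

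**Figure D3:**
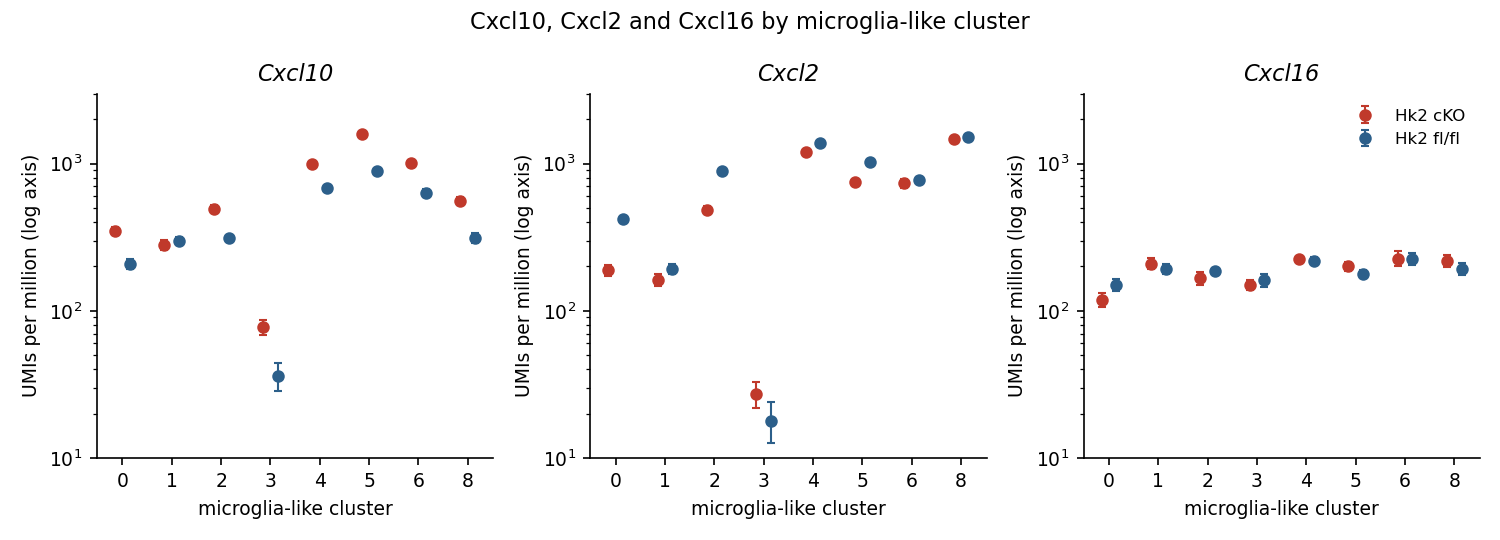
CPM (log axis) of Cxcl10, Cxcl2 and Cxcl16 in each of the 8 microglia-like clusters of the Hk2 cKO library (red, left of each pair) and the Hk2 fl/fl library (blue, right). Bars are exact 95% Poisson intervals. Cxcl10 and Cxcl2 are lowest in cluster 3, while Cxcl16 stays between 118 and 226 CPM in every cluster.

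By the kind of cell, the Cxcl10 gap differed with the fl/fl cells taken for it. The 1698 cKO cells with Gm28438 alone had 775 CPM of Cxcl10, the 480 fl/fl cells of the same kind 715 CPM and the 1213 fl/fl cells with mt-Nd3 alone 362 CPM. The log2 ratio of cKO over fl/fl was therefore 0.11 within the Gm28438 kind and 1.10 against the mt-Nd3 kind. At 5000 UMIs the share of cells with Cxcl10 was 46.9% in cKO and 49.0% in fl/fl cells of that kind, the reverse of the order in all cells, and 38.7% in fl/fl cells with mt-Nd3 alone. Within clusters, cKO cells were above their fl/fl counterparts in 3 of 8 clusters and above those of the other kind in 8 of 8. Within the fl/fl library itself, cells with Gm28438 alone were above cells with mt-Nd3 alone in 8 of 8 clusters.

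For Cxcl2 the gap between the libraries was wider within the Gm28438 kind. It stood at 760.4 CPM in the cKO cells with Gm28438 alone, 1140.5 CPM in fl/fl cells of that kind and 799.5 CPM in fl/fl cells with mt-Nd3 alone, giving log2 ratios of -0.58 and -0.07. The cKO cells were below their fl/fl counterparts in all 8 clusters and above those of the other kind in 3 of 8. The intervals of cKO and fl/fl cells with Gm28438 alone overlapped in clusters 0, 1, 3 and 6, and cluster 8 held 13 such fl/fl cells. In cluster 0 these cells had 187 CPM in cKO and 202 CPM in fl/fl, beside 451 CPM in fl/fl cells with mt-Nd3 alone. The gap was therefore not wider within the Gm28438 kind in every cluster. Within the fl/fl library, cells with Gm28438 alone were above cells with mt-Nd3 alone in 6 of 8 clusters. The share of cells with Cxcl2 at 5000 UMIs was lower in cKO both ways, at 32.9% in cKO against 42.1% in fl/fl cells with Gm28438 alone and 46.6% in those with mt-Nd3 alone. Per positive cell there were 9.50 UMIs of Cxcl2 in cKO against 10.6 in fl/fl cells with Gm28438 alone and 7.33 in those with mt-Nd3 alone. Isg15, an interferon-stimulated gene, kept its gap, at 105 CPM in cKO and 26.6 and 20.3 CPM in the fl/fl kinds, and so did Hk2, at 40.7 CPM in cKO and 157 and 171 CPM in fl/fl. Ccl2, a monocyte attractant, stood at 2458 CPM in cKO and 2054 and 1295 CPM in the fl/fl cells with Gm28438 alone and with mt-Nd3 alone.

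**Figure D4:**
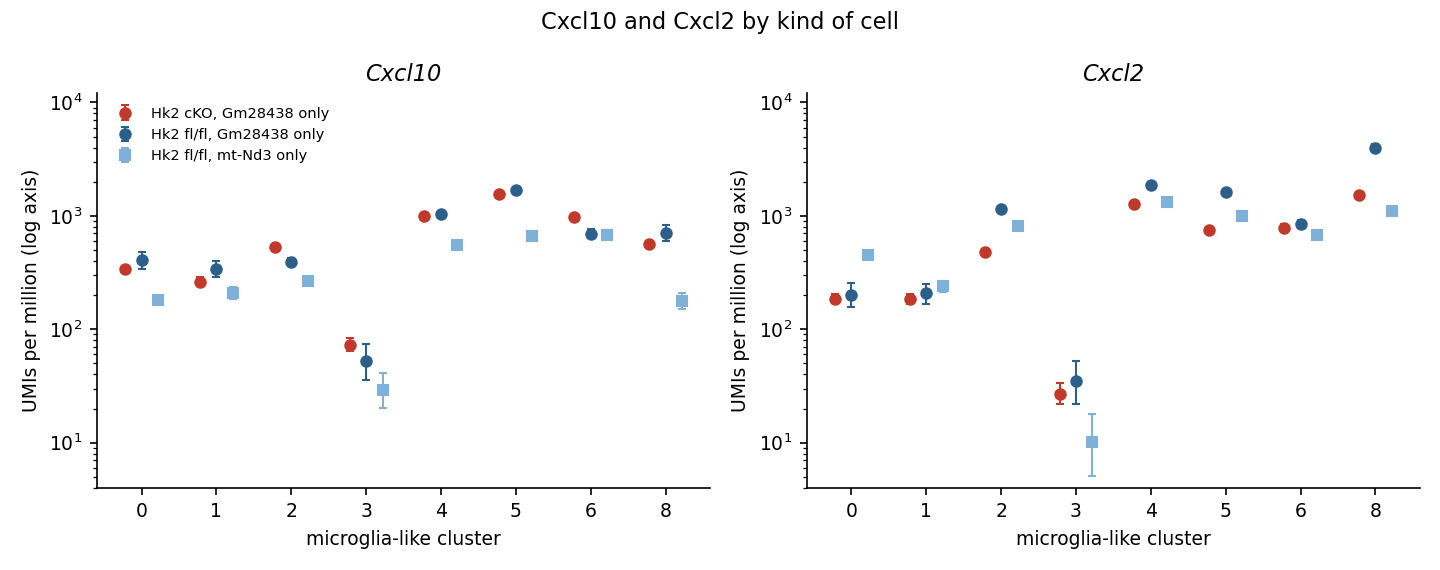
CPM (log axis) of Cxcl10 and Cxcl2 by microglia-like cluster in Hk2 cKO cells with Gm28438 alone (red circles, left), Hk2 fl/fl cells with Gm28438 alone (dark blue circles, middle) and Hk2 fl/fl cells with mt-Nd3 alone (light blue squares, right). Bars are exact 95% Poisson intervals; 2 clusters hold fewer than 50 fl/fl cells with Gm28438 alone. For Cxcl10 the light squares lie below the red points in all 8 clusters. For Cxcl2 the dark blue points lie above the red points in all 8, with overlapping intervals in clusters 0, 1, 3 and 6.

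The state of the cell was read from the number of listed genes with a UMI, at 5000 UMIs per cell. The lists used from here on were chosen with earlier results of these data known. Nothing is therefore read from how many of their genes were past the fold. Of all 7804 measured genes, 3.27% were past it higher and 2.64% lower. Type I interferon genes, which mark a response to interferon, were higher throughout: all 11 measured of 12 were more than 25% higher in cKO, with a median log2 ratio of 1.59, led by Isg15 at 104.9 CPM in cKO and 21.4 CPM in fl/fl (2.24) and Irf7, an amplifier of interferon production, at 81.7 CPM in cKO and 22.2 CPM in fl/fl (1.84). The share of cells with UMIs of 3 to 5 of these genes was 26.8% in cKO and 5.29% in fl/fl. The Cxcl10 gap did not widen with the number of these genes, and its cause was not tested. In cells with none of these genes Cxcl10 stood at 581 CPM in cKO and 377 CPM in fl/fl, a log2 ratio of 0.62, and with 1 to 2 genes at 651 CPM in cKO and 463 CPM in fl/fl. With 3 to 5 genes it stood at 582 CPM in cKO and 526 CPM in fl/fl, with intervals that overlap, and with 6 or more at 1199 CPM (1118 to 1284) in 136 cKO cells and 1595 CPM (1418 to 1787) in 37 fl/fl cells. For Cxcl2 the log2 ratio was -0.05, -0.17, -0.50 and -1.11 over the same bins, and in the highest bin it stood at 322 CPM in cKO and 697 CPM in fl/fl.

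The inflammatory list of CC chemokines and cytokines (Ccl2, Ccl3, Ccl4, Ccl7, Ccl12, Tnf, Il1a and Il1b) was higher as well, with a median log2 ratio of 0.71. Of its genes 8 of 8 were more than 25% higher in cKO, beside 3.27% of all measured genes. Ccl4, a chemokine that attracts monocytes and T cells and the most abundant, stood at 3711 CPM in cKO and 2308 CPM in fl/fl. Ccl12, a monocyte attractant, stood at 1208 CPM in cKO and 678 CPM in fl/fl (0.83), and Tnf, the inflammatory cytokine, at 793 CPM in cKO and 474 CPM in fl/fl (0.74). Both members were higher in cells with more of these genes in each library. Cxcl10 stood at 49.2 CPM in cKO and 72.4 CPM in fl/fl cells with 1 to 2 of these genes, at 329 CPM in cKO and 270.3 CPM in fl/fl with 3 to 5 and at 1026 CPM in cKO and 690.0 CPM in fl/fl with 6 or more. Cxcl2 stood at 19.4 CPM in cKO and 62.1 CPM in fl/fl with 1 to 2, at 262 CPM in cKO and 420.4 CPM in fl/fl with 3 to 5 and at 937 CPM in cKO and 1139 CPM in fl/fl with 6 or more. Cells with none held 2 UMIs of Cxcl10 in cKO and 1 in fl/fl. Cxcl10 was lower in cKO in cells with 1 to 2 inflammatory genes (61 UMIs in cKO and 84 in fl/fl), though the intervals of the 2 levels overlapped. It was higher in cKO in cells with 3 or more. Cxcl2 was lower in cKO in each of these bins.

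**Figure D5:**
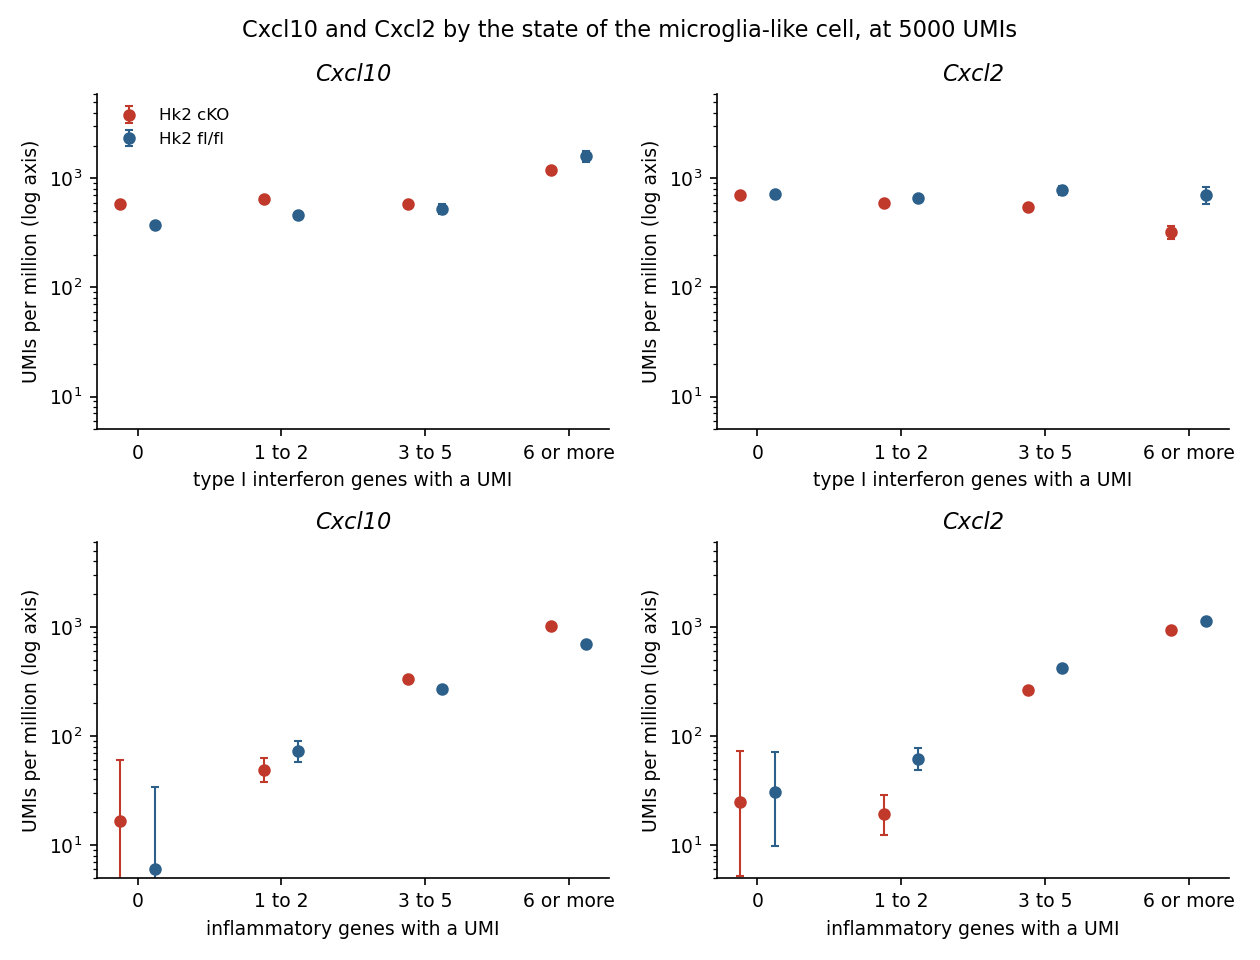
CPM (log axis) of Cxcl10 and Cxcl2 in microglia-like cells thinned to 5000 UMIs, binned by how many of 12 type I interferon genes (top) or 8 inflammatory genes (bottom) had a UMI, in Hk2 cKO (red, left) and Hk2 fl/fl (blue, right). Bars are exact 95% Poisson intervals cut at the axis. The Cxcl10 points cross at 6 or more interferon genes, at 1199 CPM in 136 cKO cells and 1595 CPM in 37 fl/fl cells, and both members climb with the inflammatory genes.

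By cell cycle, Cxcl10 stood at 899 CPM in cKO and 551 CPM in fl/fl in G2/M-positive cells, at 797 CPM in cKO and 377 CPM in fl/fl in cells positive for S phase alone, and at 516 CPM in cKO and 374 CPM in fl/fl in cells positive for neither. Cxcl2 stood at 559 CPM in cKO and 703 CPM in fl/fl in G2/M-positive cells and at 521 CPM in cKO and 685 CPM in fl/fl in cells positive for neither. In cells positive for S phase alone the order was turned, at 931 CPM in cKO and 789.7 CPM in fl/fl. The mitotic list was lower in cKO, with a median log2 ratio of -0.27. More than 20% lower were 5 of its 12 genes, beside 2.64% of all measured genes. Mki67, a marker of dividing cells, stood at 92.3 CPM in cKO and 122.6 CPM in fl/fl (-0.41), Cenpf, a kinetochore protein, at 44.7 CPM in cKO and 57.8 CPM in fl/fl (-0.36), and Ube2c, a ubiquitin carrier of mitotic exit and the most abundant, at 133 CPM in cKO and 159 CPM in fl/fl. The S-phase list had 0 of 11 measured genes past the fold and a median of -0.07, led by Mcm2 at -0.20 and Mcm5 at -0.18, both subunits of the replicative helicase, and with Pcna, the DNA polymerase clamp, most abundant at 188 CPM in cKO and 186 CPM in fl/fl.

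Among genes that regulate these chemokines or share their inducers, the lists did not move as one. The interferon gamma list had 3 of 5 measured genes more than 25% higher in cKO, beside 3.27% of all measured genes. Its median log2 ratio was 0.33. Irgm1, an immunity-related GTPase, stood at 45.3 CPM in cKO and 22.9 CPM in fl/fl (0.96), Igtp, of the same family, at 21.4 CPM in cKO and 15.2 CPM in fl/fl (0.47), and Irf1, a transcription factor and the most abundant, at 46.1 CPM in cKO and 47.1 CPM in fl/fl. The NF-kB list had 4 of 16 past the fold higher (Tnf, Il1a, Il1b and Tnfaip2), beside 3.27% of all measured genes. None was past it lower, and the median was 0.07. Tnf, Il1a and Il1b are also in the inflammatory list. Tnfaip2, induced by TNF, stood at 22.3 CPM in cKO and 12.8 CPM in fl/fl (0.75), and Nfkbia, the inhibitor of NF-kB and the most abundant, at 1106 CPM in cKO and 1064 CPM in fl/fl. Ptgs2, the inducible cyclooxygenase, stood with Cxcl2 on the lower side, at 30.5 CPM in cKO and 33.8 CPM in fl/fl (-0.14). Of 11 measured immediate early genes none was past the fold and the median was 0.02, with Nr4a1, an orphan nuclear receptor, at 0.27, Hspa1a, a heat shock protein, at 0.25, and Junb, an AP-1 subunit, most abundant at 1769 CPM in cKO and 1705 CPM in fl/fl. Of 7 regulators of mRNA decay, Zfp36l2, which binds AU-rich elements, was past the fold lower, at 182 CPM in cKO and 230.1 CPM in fl/fl (-0.34), Rc3h1, an RNA-binding ubiquitin ligase, stood at 38.8 CPM in cKO and 43.3 CPM in fl/fl (-0.15), and Zfp36, the best known of the family and the most abundant, at 438.5 CPM in cKO and 424 CPM in fl/fl.

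The other genes of the CXC system were scarce in microglia-like cells. Of 9 further CXC chemokines 1 reached 10 CPM, Cxcl14, at 10.1 CPM in cKO and 10.2 CPM in fl/fl. None of the 8 CXC receptors did: Cxcr4, the receptor of Cxcl12, had 49 UMIs in cKO and 68 in fl/fl. Cxcr2 had 13 in cKO and 21 in fl/fl, Cxcr3 8 in cKO and 6 in fl/fl, and Cxcr6 0 in cKO and 1 in fl/fl. Adam10 stood at 194 CPM in cKO and 195 CPM in fl/fl and Adam17 at 95.8 CPM in cKO and 92.1 CPM in fl/fl, a log2 ratio of -0.01 and 0.06.

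The genes whose level was most like that of a member over the 16 sums of library and cluster were found by Pearson correlation of log2(CPM + 1), as a description. For Cxcl10 these were Ccl2 (0.96), Tnf (0.96) and Gm37560 (0.93), a predicted gene, and for Cxcl2 they were Ptgs2 (0.98), the nuclear receptor gene Nr4a2 (0.95) and F3 (0.95), which encodes tissue factor. For Cxcl16 they were Glipr1 (0.92), the endosomal trafficking gene Ehd1 (0.90) and the tubulin gene Tubb6 (0.89). Cxcl10 and Cxcl2 had a coefficient of 0.84 with each other and of 0.54 and 0.56 with Cxcl16. The points share libraries and depth, so no p-value is given.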

How the data were processed

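Per the submitters' processing notes, reads were handled with bcl2fastq and Cell Ranger 3.1.0 on GRCm38. No annotation is named there, and all 55450 gene identifiers of the files occur in GENCODE M21. The deposited matrices hold UMI counts per gene and cell, not normalized. Cells needed 500 genes or more and no more than 10% mitochondrial UMIs, and scanpy 1.11.5 clustered both libraries together (2000 variable genes less the members, 30 principal components, 15 neighbours, Leiden resolution 0.8). Clusters were named from marker lists, with thresholds set after the clusters were seen. There were 3 small clusters that stayed unnamed. Counts were summed per library and class as CPM, and log2 ratios add 1 CPM. Comparisons at equal depth thinned each cell to 5000 UMIs, leaving out 180 cKO and 224 fl/fl microglia-like cells. A cell was called G2/M- or S-positive with UMIs of at least 3 of 12 listed genes. The sums were checked on simulated counts. Alternatives included TMM scaling (edgeR 4.0.16), other filters, clusterings and groups of cells. Scrublet ran per library and its calls were not used. Members and gene lists were chosen with earlier results of these data known. The genes named are all members, every measured gene of the CXC and protease lists, of each other list the 2 with the largest ratio and the most abundant, and the 3 most like each measured member; Tnf, Il1a and Il1b in the NF-kB list, Ptgs2, Isg15, Ccl2 and unmeasured receptors were named after their values were seen. Not every gene this rule picks is reported here.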

Additional observations from a re-analysis of the deposited data

Results flagged for a closer look

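The ratio of Cxcl2 between the libraries had opposite signs in different cell classes, which was not tested, with 1 library per genotype. In microglia-like cells the log2 ratio of cKO over fl/fl was -0.27, while it was 0.29 in neutrophil-like, 0.58 in dendritic cell-like and 0.65 in monocyte-like cells. In neutrophil-like cells without microglial marker UMIs the value was -0.71, and -0.63 without the richest cell of each library. In such dendritic cell-like cells it was -0.29, and 0.15 without the richest cell of each library. Cxcl10 had a log2 ratio of 0.70 in microglia-like cells and -2.51 in monocyte-like cells, the second from 8 UMIs in 21 cKO cells and 163 UMIs in 63 fl/fl cells.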

How the results depend on the processing

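No paired analysis was possible because each genotype had 1 library, and for the same reason no replicate could be left out. All values are log2 ratios of cKO over fl/fl unless a share is named. At resolutions 0.5 and 1.5 a cluster led by Top2a (326 and 331 cells) stayed unnamed, so its dividing cells are not among the microglia-like cells there. At resolution 1.5 a cluster of 214 cells led by Igkc was left out in the same way. For Cxcl10 in microglia-like cells (0.70) the ratio was 0.73 with TMM scaling, 0.61 as a mean over cells, 0.59 thinned, 0.80 with the stricter filter, 0.65 over all barcodes, 0.73 without the highest doublet scores, 0.79 and 0.80 at resolutions 0.5 and 1.5, 0.57 in cells outside the cycle, 0.62 in cells without S100a8 or S100a9 UMIs and 0.66 with clusters weighted equally. For Cxcl2 (-0.27) it was -0.24 with TMM, -0.35 as a mean over cells, -0.18 with the stricter filter, -0.24 over all barcodes and at both resolutions, -0.42 outside the cycle, -0.30 without S100a8 or S100a9 UMIs and -0.31 with equal clusters.

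All alternatives for shares of cells, for single classes and for the richest cells were chosen after seeing the data. For Cxcl10 the comparisons by kind of cell moved the ratio most. Within Gm28438 cells the ratios were 0.11 for Cxcl10, -0.58 for Cxcl2, -0.46 for Cxcl1 and 0.54 for Cxcl12, and the share of cells with Cxcl10 was 2.11 points lower in cKO (-2.11). Against fl/fl mt-Nd3 cells they were 1.10 for Cxcl10, -0.072 for Cxcl2, 1.34 for Cxcl1 and 2.09 for Cxcl9, and that share was 8.19 points higher. The cause was not tested.

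The scarce members had no stable ratio. Cxcl1 (0.32) was 0.62 thinned, 1.03 and 1.06 at resolutions 0.5 and 1.5 and 0.81 outside the cycle. Cxcl9 (1.42) was 0.79 with 5 CPM added, 2.06 outside the cycle, 2.08 without S100a8 or S100a9 UMIs, 0.038 with equal clusters and 0.89 without its richest cells. Cxcl12 (0.05) was -0.36 with the stricter filter and -0.35 outside the cycle. Over all barcodes it was 1.47, but endothelial cell-like cells held 1384 of the 1998 cKO UMIs and 395 of the 797 fl/fl UMIs in that set. Cxcl16 moved under none of the alternatives run. In endothelial cell-like cells Cxcl12 (1.14) was 0.36 with the stricter filter and 0.38 in cells without microglial marker UMIs. Without such UMIs Cxcl2 was -0.71 in neutrophil-like, 0.067 in monocyte-like and -0.29 in dendritic cell-like cells, and also without the richest cell of each library -0.63, 0.046 and 0.15 in these classes. Without the richest cells Cxcl9 was 0.24 in dendritic cell-like cells. The share of cells with Cxcl2 differed by -19.2 points at the deepest thinning run, and 4.71% of genes with a mean of 50 CPM and 10.3% with 1 CPM were past the fold.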
